A study of Caenorhabditis elegans with 16 samples.

Results

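F26F2.1, F26F2.3 and F26F2.4 are 3 protein-coding genes that lie close together on chromosome V of the nematode Caenorhabditis elegans. They are 3 of the 46904 genes in the count table, chosen by their counts in the pals-25(jy111) libraries relative to the other genotypes, as neighbours whose response to that allele differs. Their values in the pals-25(jy111) libraries are therefore given as descriptions without a p, and nothing is read from whether they passed a call there. RNA was sequenced from whole L4 larvae, the last larval stage, in 16 libraries with 4 biological replicates for each genotype. The pals-22(jy3) mutants carry a G to A change at the splice acceptor before exon 4 of pals-22. A strain with both genes mutated, pals-22(jy3) pals-25(jy9), called double mutants here, carries that change and P38L in exon 2 of pals-25. The pals-25(jy111) mutants carry Q293* in exon 5 of pals-25, made by CRISPR in an otherwise wild-type background, and the WT animals are N2. All animals were grown from synchronized L1 larvae at 20 °C on plates with E. coli OP50-1, for 48 h in pals-22(jy3) mutants and for 44 h in the other genotypes. Growth time and genotype can therefore not be told apart in any comparison with pals-22(jy3) mutants. Each genotype is 1 strain, and since each library pools whole animals, more cells that express a gene and more RNA per cell cannot be told apart.

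PALS-22 and PALS-25 are related proteins with opposing roles, encoded by neighbouring genes of 1 operon. PALS-22 holds a defence programme off, and PALS-25 switches that programme on. The programme includes the intracellular pathogen response (IPR), which is known from infection with microsporidia and the Orsay virus, and the oomycete recognition response (ORR), which is known from oomycetes that attack the epidermis. Part of the IPR depends on ZIP-1, a factor of the bZIP family. The study's IPR list holds 80 genes, of which 41 are also on its ORR list. F26F2.1 is on the IPR list alone, F26F2.3 is on the ORR list alone, and F26F2.4 is on both, so the 3 neighbours fall into the 3 possible classes. These are the memberships in the study's gene lists, while a drawing in the study marks F26F2.3 for both, in which case the neighbours would fall into 2 classes. No function of these genes was used here.

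In the WBcel235 assembly, F26F2.1 (WBGene00009166) occupies chrV:20559162-20561895 on the minus strand and has 13 exons. F26F2.3 (WBGene00009168) occupies chrV:20565289-20566554 on the minus strand and has 4 exons. F26F2.4 (WBGene00009169) occupies chrV:20569295-20569996 on the plus strand and has 2 annotated transcripts of up to 3 exons. The outer ends of the 3 genes lie 10835 bases apart, with 3393 bases between F26F2.1 and F26F2.3 and 2740 bases between F26F2.3 and F26F2.4. No other annotated gene overlaps any of them. The shared strand of F26F2.1 and F26F2.3 does not extend to F26F2.4.

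The study measured F26F2.1 and F26F2.3 by qRT-PCR as well, against the reference gene snb-1. The primers are shown because they mark which transcripts that assay reads, and no primer pair for F26F2.4 was used here. They are written 5′ to 3′ as designed, with no capitals since no base is singled out.
F26F2.1 forward: tggaaccaggtcagagacac
F26F2.1 reverse: ttgtgagaatttccgcgata
F26F2.3 forward: ggaaagggaatgcattatgg
F26F2.3 reverse: ccgcacggttatttctcat
The F26F2.1 pair has 20 bases each, with 55.0% and 40.0% G and C. The F26F2.3 pair has 20 and 19 bases, with 45.0% and 47.4% G and C.

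Library totals were 25067040 to 34151410 counts in pals-22(jy3) mutants, 21551118 to 30908924 in double mutants, 22735103 to 30574379 in pals-25(jy111) mutants and 14028579 to 26621479 in WT. Levels are CPM, the counts of a gene per 1000000 counts of the library total scaled by TMM factors. Markers of intestine, epidermis, neurons and body wall muscle, 5 genes each, were present in every genotype, with none at 0, although their sums differed between genotypes. The summed level of 4 adult-stage genes (vit-2, vit-5, vit-6 and col-19) was 1520 to 3200 CPM in pals-22(jy3) mutants, 41.9 to 828 CPM in double mutants, 520 to 842 CPM in pals-25(jy111) mutants and 612 to 965 CPM in WT. These markers were thus highest in the 4 libraries grown for longer, and their part in the results below was not tested. Replicate 4 of the double mutants stood apart from its group, with the lowest adult-stage sum (41.9 CPM, the others 402 to 828 CPM) and the lowest sum of the cuticle genes bli-1, bli-2 and rol-6 (335 CPM, the others 1500 to 3570 CPM). The mutated genes themselves stayed expressed. The level of pals-22 averaged 21.2 ± 3.29 CPM in pals-22(jy3) mutants, 6.30 ± 0.759 CPM in double mutants, 9.57 ± 0.770 CPM in pals-25(jy111) mutants and 4.23 ± 0.710 CPM in WT (SD, n = 4 each). That of pals-25 averaged 9.35 ± 1.40 CPM in pals-22(jy3) mutants, 3.16 ± 0.462 CPM in double mutants, 6.27 ± 0.914 CPM in pals-25(jy111) mutants and 2.59 ± 0.232 CPM in WT. The alleles are single-base changes, so these gene-level counts do not check the genotype labels.

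F26F2.1, F26F2.3 and F26F2.4 were each expressed at 78.0 CPM or more in every pals-22(jy3) library and at 1.5 CPM or less in every library of the other 3 genotypes. In double mutants, which carry the same pals-22 change, no rise was seen.

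F26F2.1, the IPR gene, was the most abundant of the group. It had 251, 430, 458 and 597 CPM in the pals-22(jy3) libraries (replicates 1 to 4; 9186 to 15678 counts). The double mutants had 0.537, 0.715, 0.580 and 0.752 CPM (14 to 20 counts). The pals-25(jy111) libraries had 0.660, 1.5, 1.05 and 0.886 CPM (21 to 33 counts), and the WT libraries had 1.20, 0.768, 0.966 and 1.08 CPM (17 to 25 counts). Every pals-22(jy3) library lay far above every other library, and the pals-25(jy111) and WT libraries overlapped. By summed counts, F26F2.1 was 429-fold higher in pals-22(jy3) libraries relative to those of WT (95% exact counting interval, 347 to 536). The fitted log2 fold change was 8.67 ± 0.33 (SE), with an adjusted p of 8.02e-07 by edgeR's quasi-likelihood test and Benjamini-Hochberg adjustment.

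F26F2.3, the ORR gene, was close to silent outside pals-22(jy3) mutants. It had 78.0, 184, 169 and 237 CPM in the pals-22(jy3) libraries (2857 to 6224 counts). The double mutants had 4, 0, 3 and 4 counts, the pals-25(jy111) libraries 2, 2, 4 and 3 counts, and each WT library 2 counts. The 3 genotypes at the low end overlapped, at a mean of 0.102 ± 0.0716 CPM in double mutants, 0.107 ± 0.0399 CPM in pals-25(jy111) mutants and 0.0962 ± 0.0300 CPM in WT. The pals-22(jy3) level of F26F2.3 was 1770-fold that of WT (898 to 4100), with a fitted log2 fold change of 10.66 ± 0.49 and an adjusted p of 2.59e-06 in edgeR.

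F26F2.4, on both lists, was the only one of the group without a count in any WT library. It had 78.3, 129, 133 and 132 CPM in the pals-22(jy3) libraries (2865 to 4307 counts). The double mutants had 0, 0, 0 and 1 counts, the pals-25(jy111) libraries 5, 1, 1 and 1 counts, and each WT library 0 counts. A sum of 0 counts over the 4 WT libraries allows up to 0.0340 CPM, the level of 3 counts over the group. The pals-22(jy3) level of F26F2.4 was therefore at least 3390-fold higher, with an adjusted p of 2.79e-05 in edgeR. Its fitted log2 fold change depends on the prior count that stands in for the missing WT reads and is no measure of size.

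**Figure D1:**
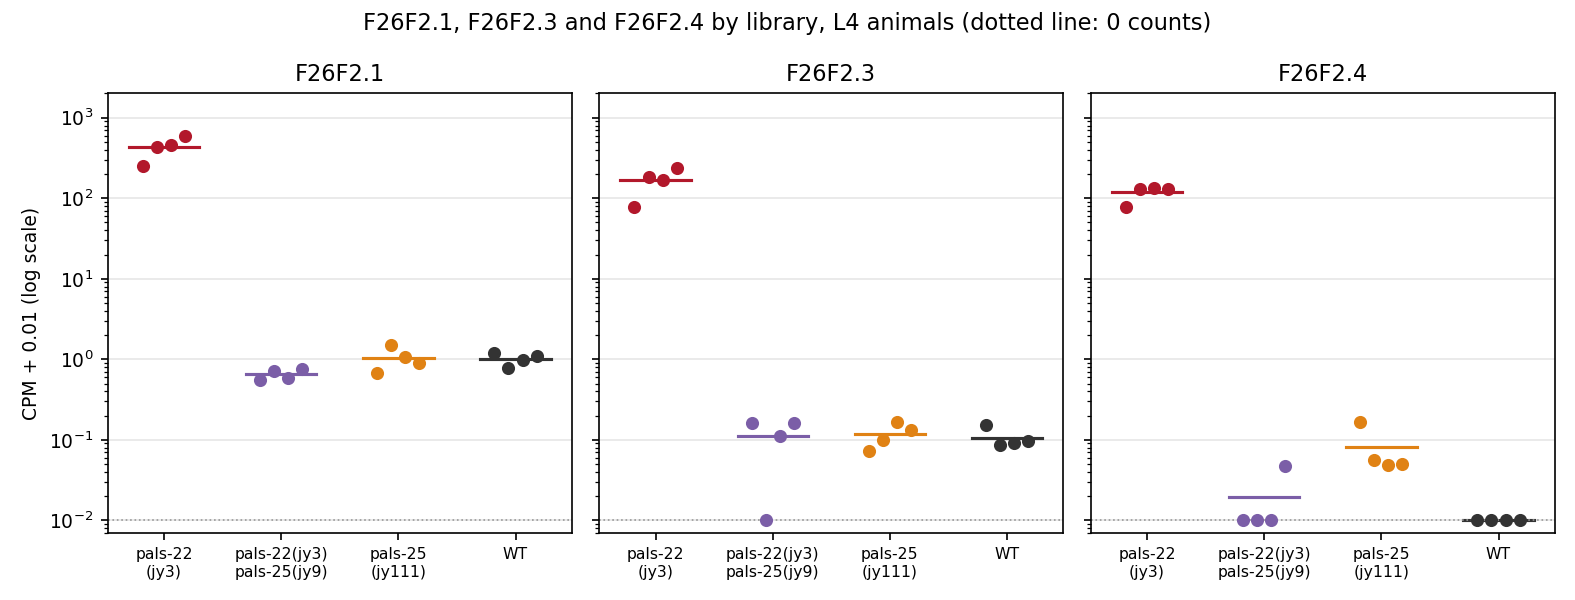
Levels of F26F2.1, F26F2.3 and F26F2.4 in each of the 16 libraries, as CPM + 0.01 on a log axis, with replicates 1 to 4 left to right within each genotype, horizontal bars at the group mean and a dotted line at 0 counts. The 4 pals-22(jy3) libraries lie between 78.0 and 597 CPM, while the other 12 libraries lie at or under 1.5 CPM.

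All 3 genes passed the call in pals-22(jy3) mutants against WT (adjusted p under 0.05 and a log2 fold change beyond 2), where 3.1% of the 14803 genes tested were called higher. F26F2.3 and F26F2.4 passed the filter on low counts through the pals-22(jy3) libraries alone, so once tested they had to differ, and their calls add nothing to the counts themselves. An exact two-sided permutation test of mean log2(CPM + 0.5) gave p = 0.0286 for each gene, the smallest that 4 against 4 libraries allow. By level in pals-22(jy3) mutants, F26F2.1 was in place 393, F26F2.3 in place 1126 and F26F2.4 in place 1620 of the genes tested. The study's IPR list draws on genes found in pals-22 mutants before, so a rise of F26F2.1 and F26F2.4 here is not independent evidence for that list.

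The 3 genes lay closer together in level once their lengths were taken into account. Per kilobase of the length in the count table, the mean in pals-22(jy3) mutants was 209 ± 68.6 CPM for F26F2.1, 196 ± 77.6 CPM for F26F2.3 and 248 ± 55.8 CPM for F26F2.4 (SD, n = 4). Within a library, the level of F26F2.3 per kilobase was 0.757 to 1.04 times that of F26F2.1, and the level of F26F2.4 was 0.963 to 1.36 times that of F26F2.1. The lengths used, 2074, 852 and 477 bases, differ from the 1992, 986 and 282 exon bases of the current annotation, so the per-length ratios of F26F2.4 depend on the gene model. Together the 3 genes took 0.0437% to 0.0979% of the counts in each pals-22(jy3) library.

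The comparison with double mutants asks whether the rise was also present where pals-25 carries P38L beside the same pals-22 change. Growth time differs here as well, at 48 h in pals-22(jy3) mutants and 44 h in double mutants. F26F2.1 was 653-fold higher in pals-22(jy3) than in double mutants (513 to 844), with a log2 fold change of 9.31 ± 0.33 and an adjusted p of 1.21e-06 in edgeR. F26F2.3 was 1500-fold higher (840 to 3010), with a log2 fold change of 10.48 ± 0.55 and an adjusted p of 8.06e-06. F26F2.4 stood at 14105 counts in pals-22(jy3) mutants, against 1 count in double mutants, a ratio of 11900 with a counting interval of 2130 to 469000 and an adjusted p of 8.15e-07. That 1 count came from replicate 4. Without this library the log2 fold changes were 9.4 for F26F2.1 and 10.69 for F26F2.3, and F26F2.4 had 0 counts in double mutants. All 3 genes were called, where 3.19% of the genes tested were called higher, and the exact permutation p was again 0.0286 for each. F26F2.3 and F26F2.4 again entered the test through the pals-22(jy3) libraries alone. This comparison shares its pals-22(jy3) libraries with the one against WT.

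Against WT, none of the 3 genes was called in double mutants, where 0.907% of the genes tested were called in either direction. F26F2.1 was the only one abundant enough to be tested. It averaged 0.646 ± 0.104 CPM in double mutants and 1.00 ± 0.183 CPM in WT (SD, n = 4 each), a ratio of 0.657 (0.469 to 0.916). The groups did not overlap, but the gap was narrow, with all double mutant libraries at or under 0.752 CPM and all WT libraries at or above 0.768 CPM. The share of all genes that separate in this way is not given here, so nothing is read from the separation. The exact permutation p was 0.0286, while edgeR gave a log2 fold change of -0.66 ± 0.22, an unadjusted p of 0.0182 and an adjusted p of 0.102, which did not pass. Without replicate 4 the double mutants averaged 0.611 ± 0.0928 CPM (n = 3). The summed epidermal markers were also lower in double mutants (1140 to 2570 CPM) than in WT (2760 to 3770 CPM), and the summed muscle markers were higher (9380 to 12000 CPM in double mutants, 8180 to 8860 CPM in WT), without overlap in either. Their part in the F26F2.1 difference was not tested. F26F2.3 had 11 counts in double mutants and 8 in WT, a ratio of 1.18 (0.431 to 3.37), with an exact permutation p of 0.971. F26F2.4 had 1 count in double mutants and 0 in WT, both under the floor of 3 counts, so no fold is given. A change of F26F2.3 or F26F2.4 between these genotypes was not detectable at this depth.

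In pals-25(jy111) mutants all 3 genes stayed at or near the WT level, so the difference in response for which they were picked is small in absolute terms. F26F2.1 averaged 1.02 ± 0.354 CPM in pals-25(jy111) mutants and 1.00 ± 0.183 CPM in WT, a ratio of 1.01 (0.752 to 1.36). F26F2.3 had 11 counts in pals-25(jy111) mutants and 8 in WT, a ratio of 1.16 (0.425 to 3.32). F26F2.4 is the one that left the WT level, with 8 counts in pals-25(jy111) mutants and 0 in WT, at least 2.25-fold higher. Of those 8 counts, 5 came from replicate 1, and without that library 3 counts were left, which is the floor. F26F2.1 alone passed the filter on low counts in this comparison, where 1.17% of the genes tested were called higher, and 0 of the 3 genes were among them. The contrast chose these genes, so nothing is read from that count.

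Set against pals-22(jy3) mutants, the pals-25(jy111) mutants held 0.236% of the F26F2.1 level, 0.0643% of the F26F2.3 level and 0.0596% of the F26F2.4 level. In the other direction, F26F2.1 was 424-fold higher in pals-22(jy3) than in pals-25(jy111) mutants (350 to 520), F26F2.3 was 1520-fold higher (851 to 3050) and F26F2.4 was 1510-fold higher (764 to 3490). The F26F2.4 values depend on replicate 1 of pals-25(jy111). Without it, a setting chosen after seeing the data, the share was 0.0351%, the mean in pals-25(jy111) mutants was 0.0415 CPM in place of 0.0704 CPM, and the fitted log2 fold change was 11.25 in place of 10.45. The 3 genes were among the 1.91% of the genes tested that were called higher, but this was fixed by their choice and, for F26F2.3 and F26F2.4, by the filter, so nothing is read from it. Compared with double mutants, pals-25(jy111) mutants had 1.54 times the F26F2.1 level (1.12 to 2.13), 0.986 times the F26F2.3 level (0.388 to 2.51) and 7.89 times the F26F2.4 level (1.06 to 350, from 8 counts against 1). These intervals cover counting error only, not the spread between libraries, and the F26F2.1 libraries of these genotypes overlapped.

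The order of the 4 genotypes was therefore set by 1 step. For F26F2.1 the means ran from pals-22(jy3) to pals-25(jy111), WT and double mutants. The pals-22(jy3) libraries stood apart from all others, and pals-25(jy111) overlapped with both WT and double mutants. WT and double mutants were separated only by the narrow gap given above. For F26F2.3 and F26F2.4 the order was pals-22(jy3), pals-25(jy111), double mutants and WT. The lower 3 genotypes of F26F2.3 overlapped one another. For F26F2.4, the pals-25(jy111) mutants had 1 to 5 counts per library, against 0 in WT, and touched the highest double mutant library at 1 count, and double mutants and WT overlapped.

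Part of both lists responded to pals-25(jy111), which gives the 3 genes their context. In pals-25(jy111) mutants against WT, 45 of the 66 IPR genes tested and 98 of the 166 ORR genes tested were called higher, with 0 and 3 called lower. Over all genes tested, 1.17% were called higher. IPR genes had a median log2 fold change of 4.71 and ORR genes one of 3.35, beside 0.02 over all genes tested. Among the genes tested the classes differed, with 36 of the 37 on both lists called higher (median 6.73), 9 of 29 on the IPR list alone (median 0.87) and 62 of 129 on the ORR list alone (median 1.86). F26F2.1 is among the 29, while F26F2.3 and F26F2.4 were too low to be tested. A list gene near 0 in WT passed the filter on low counts only if the mutant libraries raised it. The shares and medians of tested genes are therefore tilted towards genes that responded, and they do not describe the whole lists. Of all 80 IPR genes, 45 were called higher. The same limit holds for the comparisons of the other mutants with WT. In pals-22(jy3) mutants against WT, 71 of 79 IPR genes and 112 of 173 ORR genes were called higher, with 0 and 3 called lower, and the medians were 8.74 and 5.92, beside -0.09 for all genes tested. There 3.1% of all genes tested were called higher. In double mutants against WT, 0 of 33 IPR genes and 0 of 90 ORR genes were called higher, and 0 and 7 were called lower. The transcription factor gene zip-1 averaged 141 ± 18.5 CPM in pals-22(jy3) mutants, 22.2 ± 2.56 CPM in double mutants, 67.6 ± 2.51 CPM in pals-25(jy111) mutants and 23.1 ± 2.44 CPM in WT. Its intermediate level in pals-25(jy111) mutants has no counterpart in F26F2.1 or F26F2.3.

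Among genes called higher in pals-22(jy3) mutants, the 3 genes had some of the lowest shares of that level in pals-25(jy111) mutants. The median share was 8.05% over 71 IPR genes, of which 14 lay under 1%. Among them F26F2.4 was in place 4 and F26F2.1 in place 7 from the lowest. Next to F26F2.1 stood T08E11.1 at 0.167% and the F-box gene fbxa-165 at 0.359%, and next to F26F2.4 stood pals-8 at 0.0391% and the MATH domain gene math-5 at 0.112%. The median share was 41.4% over 112 ORR genes, of which 7 lay under 1%. There F57G4.11 was lowest at 0.0280%, F26F2.4 and F26F2.3 followed, and the gene in place 4 stood at 0.163%. F26F2.1 was in place 5 of the 30 genes on the IPR list alone, whose median was 2.71% and of which 10 lay under 1%. F26F2.3 had the lowest share of the 71 genes on the ORR list alone, whose median was 74.3%. F26F2.4 was in place 2 of the 41 genes on both lists, whose median was 19%. If F26F2.3 were counted as on both lists, as the drawing marks it, F57G4.11 and F26F2.4 would lie below it there. Over all 459 genes called higher, 67 lay under 1% and the median was 18.9%, and F26F2.4, F26F2.3 and F26F2.1 were in places 25, 26 and 42. Without replicate 1 of pals-25(jy111), they were in places 23, 28 and 45, and their places in the IPR list and in the ORR list were the same. WT animals held 0.231% of the pals-22(jy3) level of F26F2.1, 0.0576% of that of F26F2.3 and 0% of that of F26F2.4. A low share can thus reflect a low WT level and a large rise in pals-22(jy3) mutants. It does not measure the response to pals-25(jy111) alone. The rule that picked these genes used this response, so the places are a description.

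**Figure D2:**
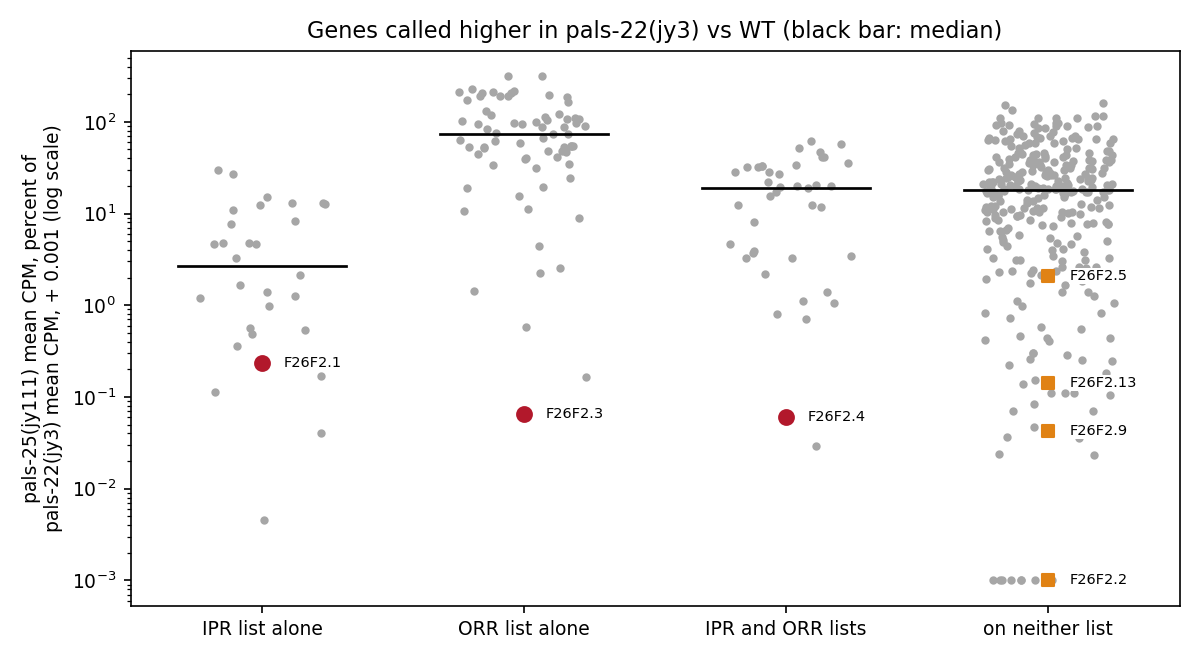
Level in pals-25(jy111) mutants as a percentage of the level in pals-22(jy3) mutants (group means of CPM, + 0.001, log axis) for the 459 genes called higher in pals-22(jy3) mutants against WT, split by list, with black bars at the medians. The red points F26F2.1 (0.236%), F26F2.3 (0.0643%) and F26F2.4 (0.0596%) lie far below their medians of 2.71%, 74.3% and 19%, and orange squares mark the other genes from F26F2.2 to F26F2.5. The WT levels of these 3 genes, not drawn, were 0.231%, 0.0576% and 0% of the pals-22(jy3) level.

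The 3 genes lie within a run of 7 consecutive annotated genes, F26F2.1 to F26F2.5, over 14991 bases. All 7 were called higher in pals-22(jy3) mutants against WT, where 3.1% of the genes tested were called higher. The 4 others, F26F2.2, F26F2.13, F26F2.9 and F26F2.5, are on neither list. F26F2.2 (chrV:20562662-20563003) had 142 counts in pals-22(jy3) mutants and 0 in WT, at least 34.1-fold higher. F26F2.13 (chrV:20564354-20564776) was 305-fold higher, from 1691 counts against 4. F26F2.9 (WBGene00050959, chrV:20567575-20567916) had 3205 counts in pals-22(jy3) mutants against 3 in WT, a ratio of 770 (263 to 3740). F26F2.5 (chrV:20573692-20574152) had 3189 counts in pals-22(jy3) mutants and 0 in WT, at least 766-fold higher. These 4 genes, like F26F2.3 and F26F2.4, passed the filter on low counts through the pals-22(jy3) libraries alone, so their calls add nothing to the counts. F26F2.2 and F26F2.9 have equal spans of 342 bases and equal exon lengths of 249 bases, and the annotation gives both the name F26F2.2. How reads matching both were assigned is not stated in the sources read, and their separate values are uncertain.

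In double mutants the levels of the 7 genes were 0 to 0.387% of those in pals-22(jy3) mutants. The response to pals-25(jy111) differed within the run. F26F2.5, the outermost gene, had 11, 9, 22 and 16 counts in the pals-25(jy111) libraries, 2, 1, 0 and 1 in the double mutants and 0 in each WT library. Its level in pals-25(jy111) mutants was at least 16.3-fold higher than in WT, and 2.1% of that in pals-22(jy3) mutants. F26F2.2 had 0 counts in pals-25(jy111) mutants and 0 in WT. F26F2.13 had 2 counts in pals-25(jy111) mutants and 4 in WT, and F26F2.9 had 1 in pals-25(jy111) mutants and 3 in WT. Counts above WT in every pals-25(jy111) library were thus found in F26F2.4 and F26F2.5, the 2 genes at the right-hand end of the run, although F26F2.4 rests on single counts in 3 of its 4 libraries. None of these was abundant enough to be tested against WT, so the difference within the run was not tested.

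Outside the run, no neighbouring gene examined was called. Of the 18 other genes examined, 6 were tested in pals-22(jy3) mutants against WT and 0 were called by edgeR, with 1 under an unadjusted p of 0.05 (Y38H6C.23, log2 fold change -0.66). Since 3.1% of all genes tested were called higher there, 0 of 6 does not mark an edge of the run. F26F2.7, the most abundant of these 18 genes, averaged 23.2 ± 1.61 CPM in pals-22(jy3) mutants, 21.7 ± 1.14 CPM in double mutants, 21.4 ± 0.822 CPM in pals-25(jy111) mutants and 20.0 ± 1.82 CPM in WT. Not all were as even. F26F2.10 had 62 counts in double mutants and 426 in WT (log2 fold change -3.19, adjusted p of 0.0553 in edgeR), which did not pass. Its pals-22(jy3) libraries ran from 0.381 to 6.15 CPM. Next to F26F2.5 on the right, the C-type lectin gene clec-263 had 7 counts in pals-22(jy3) mutants and 0 in WT, at least 1.68-fold higher. Next to F26F2.1 on the left, abf-4, named for its relation to antibacterial factors, had 10, 9, 14 and 19 counts in pals-22(jy3) mutants and 1, 1, 0 and 0 in WT, a ratio of 18.7 (4.94 to 159). The double mutants had 2, 1, 2 and 13 counts of abf-4, a ratio of 2.43 between pals-22(jy3) and double mutants (1.4 to 4.42). The overlap with pals-22(jy3) mutants comes from replicate 4 alone, the library that stood apart in its stage markers, and the other 3 double mutant libraries lay below every pals-22(jy3) library. Both genes were too low to be tested.

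**Figure D3:**
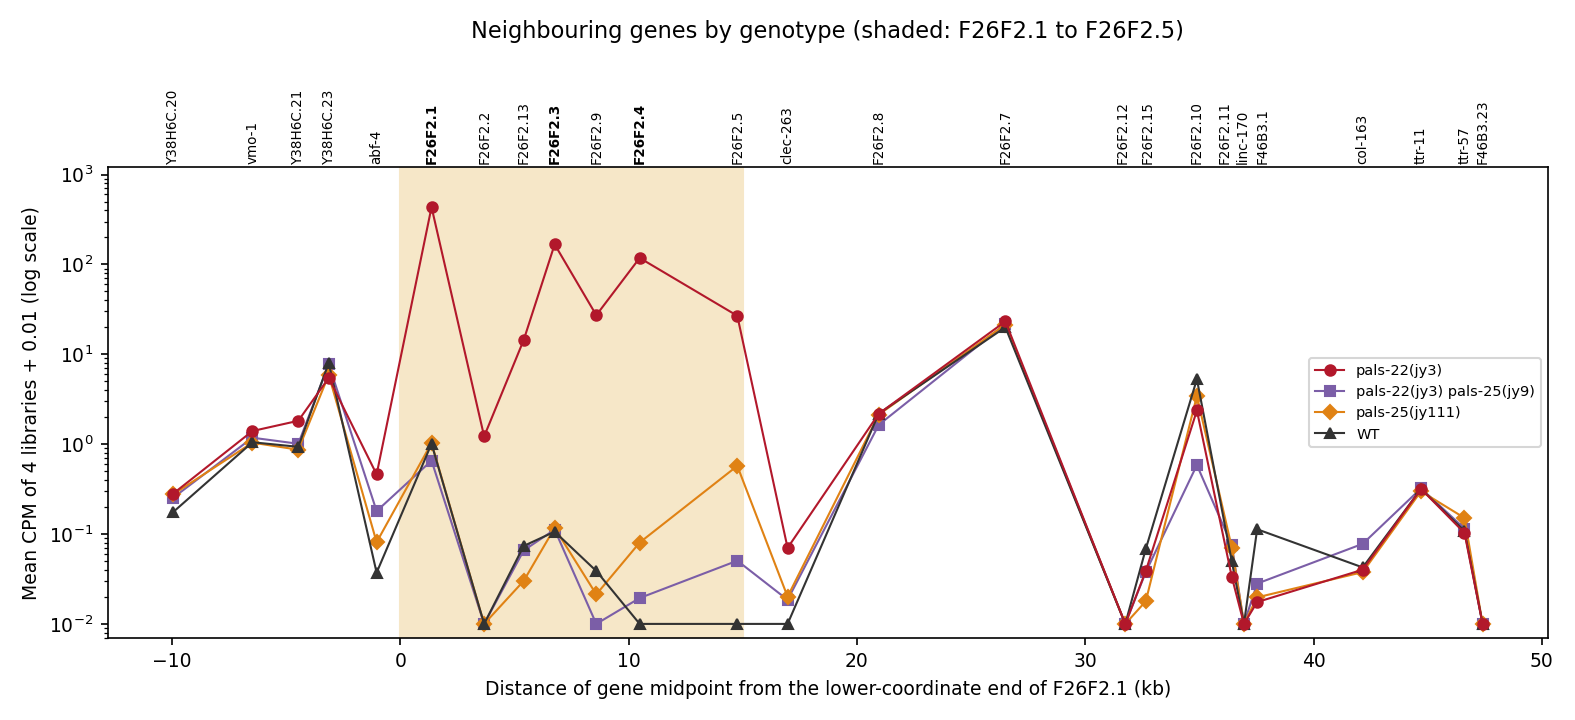
Mean level of 25 neighbouring genes in each genotype (CPM of 4 libraries + 0.01, log axis) against the distance of each gene's midpoint from the lower-coordinate end of F26F2.1, with lines joining genes in chromosome order and shading from F26F2.1 to F26F2.5. The pals-22(jy3) line lies far above the others across the 7 shaded genes and meets them at F26F2.8 and F26F2.7. It also lies above them, at low levels, at abf-4 and clec-263 on either side of the shading. F26F2.5 is the shaded gene with the highest pals-25(jy111) level relative to WT.

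The 4 pals-22(jy3) libraries were not equal. Replicate 1 had the lowest level of all 7 genes of the run, at 50.7% of the mean of the other 3 libraries for F26F2.1, 39.7% for F26F2.3 and 59.5% for F26F2.4. Replicate 1 was also lowest for 76.0% of the 459 genes called higher, with a median of 65.5% of the others, and for 44.5% of all genes tested. The SD of log2(CPM + 0.5) over the 4 libraries was 0.52 for F26F2.1, 0.69 for F26F2.3 and 0.37 for F26F2.4, and without replicate 1 it was 0.25, 0.25 and 0.02. For the genes called higher the median SD over the 4 libraries was 0.37. The summed level of 5 intestinal genes was also lowest in replicate 1 of pals-22(jy3) mutants, at 2860 CPM and up to 5290 CPM in the other libraries, and that of 5 epidermal genes was highest there, at 3680 CPM and down to 1840 CPM. Replicate 1 had the lowest intestinal and the highest epidermal sum in each of the other genotypes too. The part of tissue content in this spread was not tested. The highest library was replicate 4 for F26F2.1 and F26F2.3 and replicate 3 for F26F2.4.

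**Figure D4:**
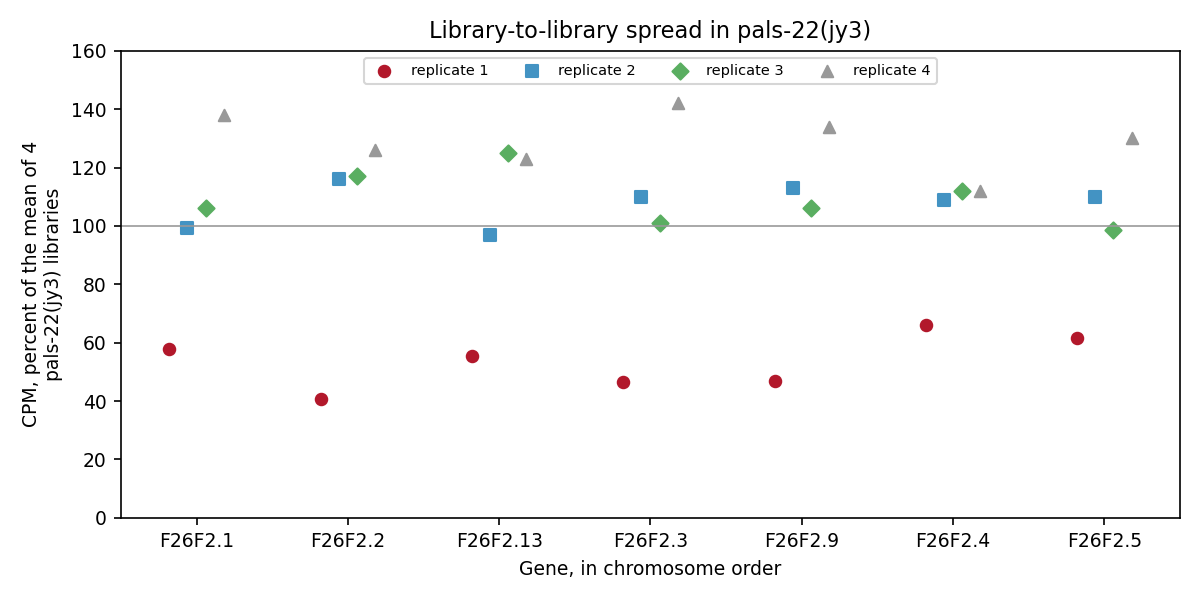
Level of each of the 7 genes F26F2.1 to F26F2.5 in the 4 pals-22(jy3) libraries, as a percentage of the mean of those libraries on a linear axis from 0. Replicate 1 is lowest for all 7 genes, and the other 3 libraries of F26F2.4 nearly coincide at 129 to 133 CPM.

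The composition of the group's reads shifted with its level. F26F2.1 supplied 60.3% of the summed counts of the 3 genes in pals-22(jy3) mutants (57.9% to 61.8% by library). It supplied 84.6% of 78 counts in double mutants (exact 95% interval, 74.7% to 91.8%), 84.4% of 122 counts in pals-25(jy111) mutants (76.8% to 90.4%) and 91.5% of 94 counts in WT (83.9% to 96.3%). F26F2.4 supplied 16.6% in pals-22(jy3) mutants and 0 of 94 counts in WT, which allows up to 3.85%. These intervals cover counting error only.

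Over the 16 libraries, log2(CPM + 0.5) of the 3 genes correlated with r of 0.997 to 0.998 between each pair. These libraries fall into 2 clusters, the 4 pals-22(jy3) libraries and the rest, so the values describe that 1 step, and many genes share it. Among the 14800 other genes tested, 46 had an r above 0.99 with F26F2.1, 55 with F26F2.3 and 55 with F26F2.4. The 5 most alike to F26F2.1 were K02E2.7, WBGene00007654, F20E11.17, C18D4.12 and math-5, each at r = 0.998. Those most alike to F26F2.3 were pals-15, math-5, sri-70, K10G4.14 and F20E11.17, each at 0.999. For F26F2.4 they were pals-8 and the F-box gene fbxa-75, followed by F57G4.11, WBGene00007654 and C18D4.4 at 0.999. The most alike of these, pals-8, averaged 65.1 CPM in pals-22(jy3) mutants, 0 in double mutants, 0.0254 CPM in pals-25(jy111) mutants (3 counts) and 0 in WT. None of these genes belongs to the run from F26F2.1 to F26F2.5. The 3 genes themselves were left out of the search, so nothing is read from this.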

How the data were processed

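Whole L4 animals of 4 genotypes were sequenced as paired ends on an Illumina NovaSeq from stranded mRNA libraries. The authors aligned reads to WS235 with Rsubread and deposited featureCounts counts per gene, which are not normalized. Tool versions, strandedness of counting and treatment of multi-mapped reads were not stated in the sources read. Every library was assigned by its label, and replicate libraries differed by more than sampling noise. Positions are those of the Ensembl annotation of WBcel235.

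Each pair of genotypes was fitted alone with edgeR 4.0.16 (quasi-likelihood test, TMM scaling, R 4.3.3) over genes reaching 0.5 CPM in 4 or more of the 8 libraries. A call needed a Benjamini-Hochberg adjusted p under 0.05 and a log2 fold change beyond 2, the study's thresholds. Folds are ratios of summed counts per scaled library size, with exact 95% Clopper-Pearson counting intervals. Such intervals leave out the spread between libraries. A group without counts was set to a floor of 3 counts. DESeq2 1.42.0 and limma 3.58.1 (voom) were among the alternatives. Scripts were tested on simulated data.

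Deviations of same-numbered libraries correlated at 0.1 or more in every pair for pals-22(jy3) and pals-25(jy111) (lowest r 0.372). The same held for pals-25(jy111) with double mutants (0.121) and with WT (0.102). The lowest r was 0.094 for pals-22(jy3) and WT, 0.087 for pals-22(jy3) and double mutants, and -0.13 for double mutants and WT. Some differently numbered libraries correlated more than these lowest values, such as WT replicate 2 and pals-25(jy111) replicate 4 (0.547). The highest values were between libraries of replicate 1, at 0.848 for pals-22(jy3) and pals-25(jy111). They were 0.771 for WT and pals-22(jy3) and 0.771 for WT and pals-25(jy111). These values cannot settle whether replicate numbers pair the libraries, which the labels do not state.

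Named were the 3 genes, all F26F2 genes, 5 protein-coding genes on each side, pals-22, pals-25, zip-1, snb-1, the 5 most correlated genes per member and those next in rank. The genes and lists were chosen with earlier results of these data known. A planned search of promoter motifs and proteins was not run, since no sequences were used here.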

Additional observations from a re-analysis of the deposited data

Results flagged for a closer look

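Of 22 groups of 4 libraries with any variation in the 7 genes F26F2.1 to F26F2.5, 8 had a library set apart from the other 3 by Dixon's 95% criterion. Chance gives about 1 in 20 for continuous values, but a group with counts in only 1 library always meets the criterion. The 8 of 22 can therefore not be set against that rate. In pals-22(jy3) mutants, replicate 1 was low for F26F2.4 (78.3 CPM, with 129 to 133 CPM in the others) and for F26F2.2 (0.492 CPM, with 1.41 to 1.52 CPM in the others). The other 6 rest on 5 or fewer counts. In double mutants, replicate 4 had 1 count of F26F2.4 (0.0376 CPM) and the others 0. In pals-25(jy111) mutants, replicate 1 was high for F26F2.4 (5 counts, 0.157 CPM, with 0.0389 to 0.0453 CPM in the others), replicate 4 was high for F26F2.13 (2 counts, 0.0805 CPM, others 0) and replicate 2 for F26F2.9 (1 count, 0.0453 CPM, others 0). In WT, replicate 2 was high for F26F2.9 (3 counts, 0.115 CPM, others 0), and replicate 1 for F26F2.3 (0.141 CPM, with 0.0768 to 0.0867 CPM in the others). That last library had 2 counts like the other WT libraries and the smallest total, 14028579 counts.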

How the results depend on the processing

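The calls of F26F2.1, F26F2.3 and F26F2.4 in pals-22(jy3) mutants against WT and against double mutants held in all 90 recomputed values (DESeq2, limma-voom, RLE size factors, no filter, 1 fit over 16 libraries, replicate block, prior count 2 and each library left out). For F26F2.3 and F26F2.4 this was fixed by their near absence outside pals-22(jy3) mutants, so it adds nothing to the counts. For F26F2.1 the log2 fold change against WT ran from 8.56 to 8.95, for F26F2.3 from 9.88 to 10.99 and for F26F2.4 from 10.55 to 14.67, the lowest with prior count 2. F26F2.1 in double mutants against WT stayed uncalled, at -0.77 to -0.57 (adjusted p 0.0886 to 0.218), and in pals-25(jy111) mutants against WT it ran from -0.21 to 0.18. With the replicate block these were -0.65 and 0.02, and the block changed no call of the 3 genes and no count of calls by over 1.5 times. With a log2 fold change beyond 1, calls numbered 1147 in pals-22(jy3) against WT and 1273 against double mutants, 827 against pals-25(jy111), 477 in double mutants against WT, 308 in pals-25(jy111) against WT and 332 against double mutants, in place of 592, 612, 380, 132, 183 and 212. DESeq2 gave 222 calls in double mutants against WT, and leaving out each library gave 46 to 202, with 62, 76 and 202 without double mutant replicates 2, 3 and 4, and 83, 46 and 59 without WT replicates 1, 3 and 4. With a pseudocount of 0.1, chosen after seeing the data, the mean difference of F26F2.3 between double mutants and WT was -0.04, against 0.01, with an exact permutation p of 1.0. Spearman's rho named 0 of the same 5 genes as most alike for each of the 3 genes. Without a filter F26F2.3 and F26F2.4 could be fitted in double mutants against WT, with adjusted p of 0.928 and 0.538 in edgeR. Depth limits what can be said of F26F2.3 and F26F2.4 outside pals-22(jy3) mutants, where each had 11 or fewer counts per genotype.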
